A study of Mus musculus with 9 samples.

Results

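The ERK feedback and Ets target genes are genes whose transcription is raised when receptor signalling reaches the ERK kinases, and 10 of them were followed here in mammary tumours driven by an activated Neu allele: the phosphatases Dusp4, Dusp5 and Dusp6, the Sprouty genes Spry1, Spry2 and Spry4, the Sprouty-related genes Spred1 and Spred2, and the Ets transcription factors Etv4 and Etv5. They were chosen by name, for their place in the pathway and with earlier results of these data known, and were 10 of the 18484 genes listed for each tumour. All 10 passed the filter on low counts that left 14007 genes for testing. The tumours came from BlgCre-NeuKI mice on a mixed FVB/C57Bl6 background, which carry the activated Neu oncogene in place of 1 copy of Erbb2, silent until Cre driven by the beta-lactoglobulin promoter, active mainly in luminal mammary cells, removes a STOP cassette. Tumour cells therefore hold an engineered Neu copy and a normal Erbb2 copy, both under the Erbb2 promoter, and either may be gained. RNA-seq was available for 5 tumours with high amplification of the Erbb2/Neu locus, all adenocarcinomas of no special type, AC(NST), of virgin mice in 3 cases (MS1213.1 and the pair MS1163.1 and MS1163.2) and of parous mice in 2 (MS1155.3, MS1218.2). A further 3 tumours, all from parous mice, were not/low-amplified: MS1210.1 and MS1349.1 were metaplastic adenosquamous carcinomas (ASQC) and MS1166.1 was an AC(NST). The study set these classes by quantitative PCR on tumour DNA. Its digital droplet PCR scored MS1213.1 and MS1218.2 low for Neu instead. Its exome copy number sided with the quantitative PCR for MS1213.1 and with the droplet PCR for MS1218.2. The ninth tumour, MS1156.1, was a mammary sarcoma of a parous mouse and was left out of the tests, apart from an alternative that counted it as not/low-amplified. No untreated or normal mammary sample was analysed here, ages were not in the labels, and each tumour was a separate library, with MS1163.1 and MS1163.2 sharing a mouse number although the study's design text speaks of a mouse per tumour.

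ErbB receptors signal through Ras and the kinases Raf, MEK and ERK. Active ERK switches on its own brakes: DUSP6 removes phosphate from ERK in the cytoplasm, DUSP4 and DUSP5 do so in the nucleus, Sprouty proteins dampen signalling between receptor and Ras or Raf, and SPRED proteins bring the Ras-inactivating protein neurofibromin to the membrane. Etv4 and Etv5 belong, with Etv1, to the PEA3 group of Ets factors, which are expressed in mammary epithelium during branching and are induced and phosphorylated downstream of ERK. Levels of these transcripts are widely read as a record of ERK output, which is itself not measured by RNA-seq.

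The libraries held between 12501225 and 23912429 reads counted on genes, and the smallest count of any of the 10 genes in any tumour was 39, for Etv4 in MS1166.1, so counting error was small beside the spread between tumours. Values below are normalized counts, which are read counts divided by the size factor of the tumour, unless another unit is named. The values of a gene always follow the same order of tumours, which for the high-amplified class is MS1213.1, MS1163.1, MS1163.2, MS1218.2, MS1155.3, and for the not/low-amplified class MS1210.1, MS1349.1, MS1166.1. Erbb2, to which each gene is set below, read 51764, 5284, 6689, 15261 and 105019 in the high-amplified tumours. It read 2783, 1943 and 1532 in the not/low-amplified class, and the sarcoma read 1177. Every high-amplified tumour thus stood above every not/low-amplified tumour, as labelled, but the high-amplified tumours spanned 19.9-fold. The Erbb2 value rests on reads that aligned to the mouse gene, and how reads of the rat-derived Neu sequence were counted was not tested. The tumour tissue was mixed: summed over 5 luminal keratin and adhesion genes the level was 4076 to 6562 TPM (a length-corrected share of all transcripts) in high-amplified and 8236 to 12131 TPM in not/low-amplified tumours, against 66.3 TPM in the sarcoma. Summed over 5 basal and squamous markers it was 6.78 to 500.2 TPM against 689 to 8801 TPM, with Krt6a at 0 in at least 1 tumour. Of these 5 markers only Krt14 had every not/low-amplified tumour above every high-amplified one. In MS1166.1 Krt14 read 6495, whereas Krt5 (11.9) and Trp63 (13.1) were the lowest of the 8 epithelial tumours, with Krt10 at 15.5 and Krt6a at 52.3. MS1218.2 had the highest fibroblast sum of the 8 epithelial tumours, 6891 TPM (918 to 3034 TPM in the other high-amplified tumours), the highest macrophage sum, 5381 TPM (682 to 1277 TPM), and the highest endothelial sum, 484 TPM (121 to 182 TPM). The study estimated purity from the same RNA-seq with ESTIMATE and reported a high share of tumour cells in every sample except MS1218.2. In such bulk tissue, fewer cells of a type and less RNA per cell cannot be told apart, and the part of these mixtures in the results below was not tested.

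Promoter sequence was at hand for 7 of the 10 genes, in 8 windows, from RefSeq on GRCm38.p6, and the others are Dusp4, Spry4 and Etv4. The 250 bases before each start were searched on both strands for the Ets motif CCGGAA, which none of the 8 windows held and 12.2% of all 27025 promoters did, and for the AP-1 motif TGANTCA, which again no window held and 6.87% of all promoters did. The shorter Ets core GGAA, part of the longer motif, occurred 7 times for Spred2, 6 for Dusp6, 4 for Spred1, 3 each for Dusp5 and Spry2, 1 time for Spry1, and 0 and 4 times in the windows of Etv5, against a median of 3 over all promoters, and 93.4% of all promoters held at least 1 copy. The Dusp6 window is shown because Dusp6 was the most abundant of the 10 transcripts per length in high-amplified tumours. It is chr10:99262981-99263230 on the plus strand, all of it before the first annotated exon, with each GGAA or its complement in capitals:

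Dusp6: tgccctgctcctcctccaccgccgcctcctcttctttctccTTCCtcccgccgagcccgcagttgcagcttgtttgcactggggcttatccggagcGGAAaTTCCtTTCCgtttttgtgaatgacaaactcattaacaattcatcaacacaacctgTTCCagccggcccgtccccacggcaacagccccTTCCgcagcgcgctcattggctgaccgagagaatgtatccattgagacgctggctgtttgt

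Dusp5 was the only gene of the 7 whose window held a CArG box, the sequence bound by serum response factor, and it held 2, which is true of 0.0185% of all promoters (1.4% held at least 1). Both are in capitals in this stretch of chr19:53529058-53529087, plus strand, which ends 58 bases before the RefSeq start:

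Dusp5: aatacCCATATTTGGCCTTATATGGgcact

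These matches describe letters only. Dusp5, which carries them, was among the genes whose level differed least between the groups.

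Per length, Dusp6 was the most abundant of the 10 transcripts in high-amplified tumours, with a median of 542 TPM (319 to 1524 TPM), followed by Dusp4 at 284 TPM, Etv5 at 249 TPM and Spred1 at 200.4 TPM. The ranges of Dusp4 (168 to 342 TPM), Etv5 (165 to 405 TPM) and Spred1 (78.5 to 286 TPM) overlapped, so their order was not resolved. Spry4 (median 92.2 TPM), Spry2 (77.5), Dusp5 (55.2), Spred2 (51.4), Etv4 (37.4) and Spry1 (32.2) followed with overlapping neighbours. In not/low-amplified tumours the order differed: Dusp4 led with a median of 174 TPM (47.0 to 357 TPM), then Dusp6 with 99.0 TPM and Spred1 with 81.3 TPM, while Etv5 (16.2 TPM), Spry4 (9.67 TPM) and Etv4 (5.72 TPM) were at the foot of the list. The 10 genes summed to 1157, 2964, 2130, 1274 and 1563 TPM in the high-amplified tumours. The sums were 614, 681 and 314 TPM in the not/low-amplified class, so the groups did not overlap, and Dusp6 was the largest single share of the sum in every high-amplified tumour. Such a separation was not particular to these genes. The sum over the other feedback regulators described below did not overlap either, at 644 to 926 TPM against 434 to 594 TPM. The sums of the remaining pathway lists overlapped.

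High-amplified against not/low-amplified tumours. This comparison follows the study's question of which gene expression differs with the copy number of the Erbb2/Neu locus. Etv5 and Spry4 rose in high-amplified tumours, 11.9-fold and 9.71-fold. Dusp6, Etv4 and Spred2 also had every high-amplified tumour above every not/low-amplified tumour, with changes of 6.87-, 4.06- and 1.78-fold, but did not pass the test. The other 5 genes (Dusp4, Dusp5, Spry1, Spry2 and Spred1) overlapped between groups. In the fit over all genes, called by edgeR's quasi-likelihood test at a Benjamini-Hochberg adjusted p under 0.05 and a log2 fold change beyond 1, 2 of 10 were called higher in high-amplified tumours, where 0.435% of all genes tested were. DESeq2 called 4 of 10 (Dusp6 and Etv4 as well), where it called 5.94% of genes as higher. An unadjusted p under 0.05 was reached by 5 of 10, against 22.8% of genes in either direction. No overlap with the high-amplified tumours on top was seen for 5 of 10, against 7.55% of all genes. All 10 fitted changes were above 0, with a median of 0.88 on the log2 scale where the median of all genes was 0.02. Erbb2 itself, with its wide spread, had a log2 change of 4.16 ± 1.13 (SE, adjusted p = 0.0879, edgeR).

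**Figure D1:**
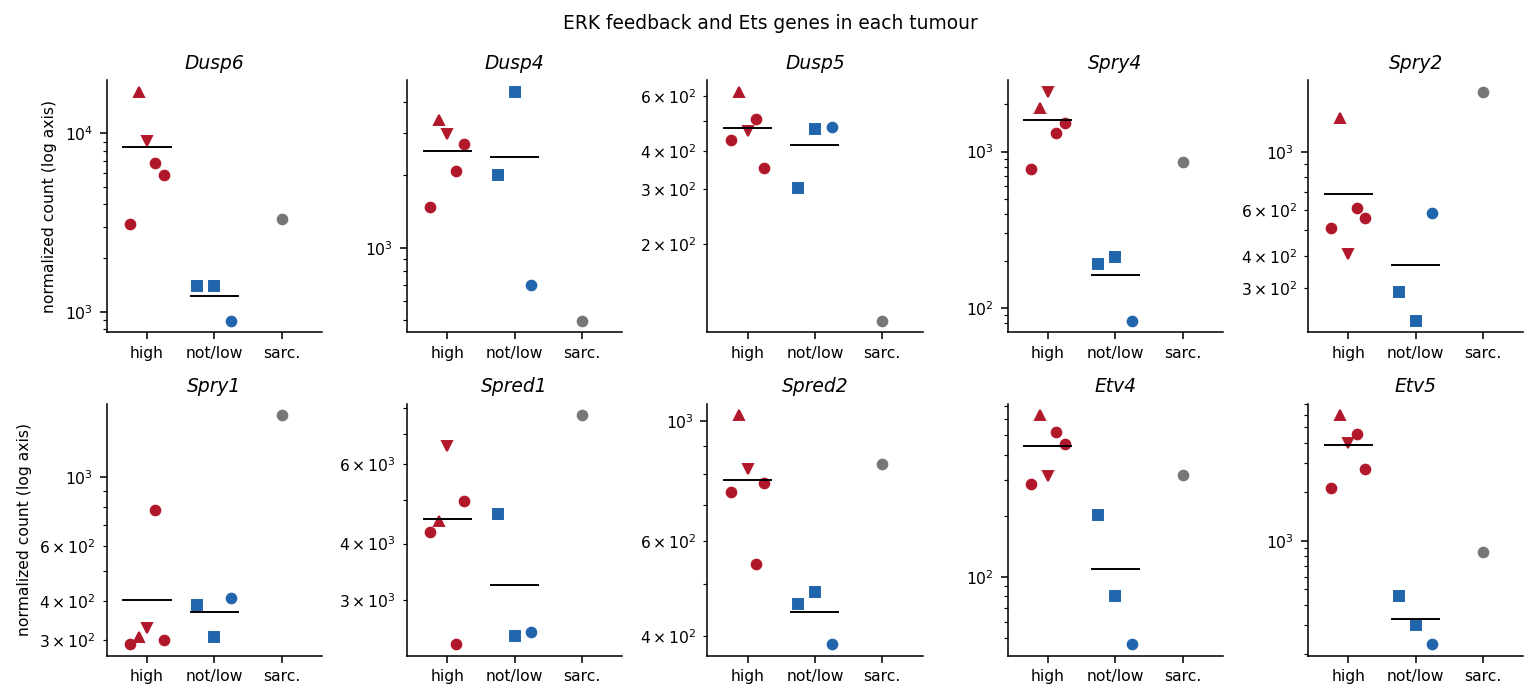
Normalized count (log axis, a different range in each panel) of the 10 genes in the 5 high-amplified tumours (red), the 3 not/low-amplified tumours (blue, squares for ASQC) and the sarcoma (grey), with black bars at group means and triangles for MS1163.1 (up) and MS1163.2 (down). Red points lie above all blue points for Dusp6, Spry4, Spred2, Etv4 and Etv5 only.

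Among the phosphatases, Dusp6 read 3113, 17137, 9117, 6786 and 5870 in the high-amplified tumours. It read 1400, 1403 and 891 in the not/low-amplified tumours. The lowest high-amplified tumour was 2.22-fold above the highest not/low-amplified one, and the 5 high-amplified tumours spanned 5.51-fold among themselves. The log2 change was 2.78 ± 0.56 (SE, adjusted p = 0.0538, edgeR), short of the threshold, which it passed with DESeq2 (adjusted p = 1.16e-05), with limma on log2 values (adjusted p = 0.0381), with no filter on low counts (adjusted p = 0.042) and without MS1218.2 (adjusted p = 0.0291).

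Dusp4, a nuclear phosphatase that also acts on other MAP kinases, had no such pattern. It read 1474, 3366, 2945, 2073 and 2688 in the high-amplified tumours, and 1997, 4427 and 697 in the not/low-amplified ones. The highest and the lowest of the 8 values were thus both not/low-amplified, an ASQC and the AC(NST) respectively, and the log2 change was 0.08 ± 0.52 (SE). The value depended on the not/low-amplified tumours, at -0.36 without MS1166.1, 0.91 without MS1349.1 and 1.82 among AC(NST) tumours alone (unadjusted p = 0.0128, adjusted p = 0.162, edgeR). Dusp5, the ERK-specific nuclear phosphatase, was the steadiest of the 10 over the 8 tumours, at 352 to 620 in high-amplified and 302 to 476 in not/low-amplified tumours, with a log2 change of 0.21 ± 0.28 (SE). Both changes over all 8 tumours were within the spread between tumours.

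Of the Sprouty genes, Spry4 had the clearest separation. It read 776, 1883, 2407, 1315 and 1516 in the high-amplified tumours, against 193, 212 and 83.3 in the not/low-amplified class. The lowest high-amplified value was 3.66-fold above the highest not/low-amplified one. The log2 change was 3.28 ± 0.48 (SE, adjusted p = 0.0283, edgeR). The call was lost when MS1163.1, MS1163.2, MS1155.3, MS1210.1 or MS1349.1 was left out, with adjusted p between 0.0593 and 0.0809 (edgeR) and log2 changes of 3.09 to 3.53. It was kept in 7 of 18 alternatives, with log2 changes of 2.25 to 4.21 over all 18.

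Spry2 read 509, 1350, 405, 612 and 559 in the high-amplified tumours and 291, 226 and 585 in the not/low-amplified ones. The AC(NST) without high amplification sat among the high-amplified tumours and the ASQC tumours below them, and the log2 change was 0.93 ± 0.47 (SE, adjusted p = 0.27, edgeR). Spry1 read 292, 307, 329, 786 and 300 in the high-amplified and 390, 308 and 409 in the not/low-amplified tumours. MS1218.2, the tumour with the highest fibroblast, macrophage and endothelial sums, stood apart, and the other 4 high-amplified tumours lay below MS1210.1 and MS1166.1. Its log2 change was 0.15 ± 0.39 (SE), and -0.24 without MS1218.2.

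The Spred genes differed little. Spred2 read 741, 1027, 815, 544 and 769 in the high-amplified tumours and 459, 483 and 387 in the not/low-amplified ones. The groups did not overlap, but the gap was narrow, only 1.13-fold between their nearest tumours. The log2 change was 0.83 ± 0.27 (SE, adjusted p = 0.123, edgeR). Spred1, the more abundant Spred transcript, read 2392 to 6585 in high-amplified and 2496 to 4657 in not/low-amplified tumours, and its lowest value of the 8 was that of the high-amplified tumour MS1218.2. Its log2 change was 0.50 ± 0.37 (SE, adjusted p = 0.439, edgeR).

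Both Ets factors were higher in all high-amplified tumours. Etv5 read 2114, 5962, 4033, 4589 and 2760 in the high-amplified tumours, against 454, 302 and 230 in the not/low-amplified class. This was the widest gap of the 10 genes, a factor of 4.65 between the lowest high-amplified and the highest not/low-amplified value. The log2 change was 3.58 ± 0.45 (SE, adjusted p = 0.0183, edgeR). The call was lost without MS1210.1 (adjusted p = 0.0695, edgeR) and without MS1349.1 (adjusted p = 0.0618). It was kept in 11 of 18 alternatives, with log2 changes of 3.10 to 4.06 over all 18.

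Etv4 read 288, 631, 317, 522 and 455 in the high-amplified tumours and 201, 80.4 and 46.4 in the not/low-amplified ones. The ASQC tumour MS1210.1 came within 1.43-fold of the lowest high-amplified tumour. The log2 change was 2.02 ± 0.52 (SE, adjusted p = 0.0824, edgeR), called by DESeq2 (adjusted p = 0.0028). Etv4 lies on chromosome 11, 3.33 megabases from the end of Erbb2 in GRCm38, and Spred2 lies on the same chromosome, 78.4 megabases away on the other side. The copy number of either gene was not analysed here.

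**Figure D2:**
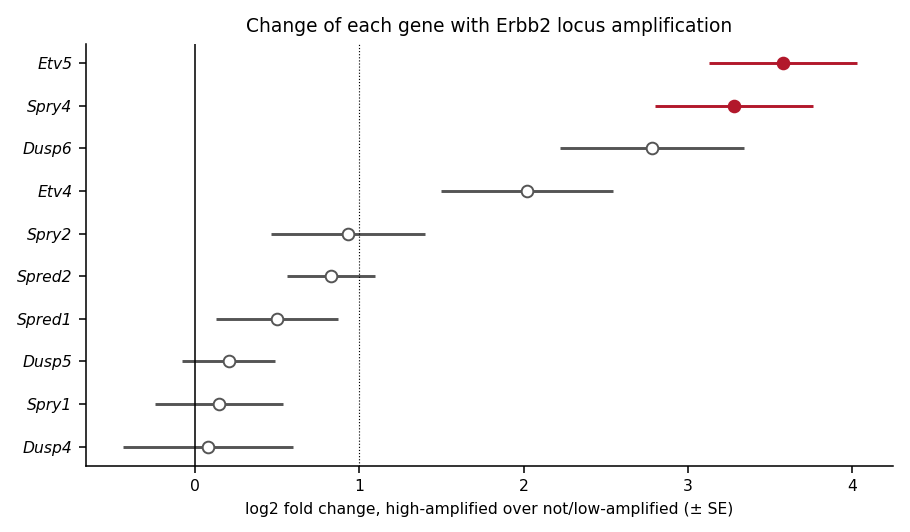
Fitted log2 fold change of each gene, high-amplified over not/low-amplified, with its standard error (5 against 3 tumours, edgeR). Filled red points mark the called genes Etv5 (3.58) and Spry4 (3.28), open points the genes not called, and the dotted line a log2 change of 1.

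Parity limits this comparison, since all 3 virgin tumours were high-amplified. With parity as a covariate, Etv5 (log2 change 3.50) and Spry4 (3.13) kept their size but not their call (adjusted p = 0.126 and 0.15, edgeR). Among parous tumours alone, 2 against 3, the log2 changes were 3.51 and 3.12 and neither was called. Among AC(NST) tumours alone, 5 against MS1166.1, they were 4.06 and 4.21 (adjusted p = 0.0835 and 0.072, edgeR), where the lone tumour is assumed to vary like the others.

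Each gene against Erbb2 in the same tumour. The amount of Erbb2 transcript did not order these genes the way the amplification class did. Over the 8 epithelial tumours, the slope on log2 Erbb2 was called for 0 of 10 genes and 0 of 14006 genes by edgeR (0 of 10 and 14.9% at an unadjusted p under 0.05), and DESeq2 called 505 genes (3.33%), none of them among the 10. The steepest slopes were 0.40 ± 0.33 (SE) log2 units per doubling of Erbb2 for Etv5, 0.39 ± 0.29 for Spry4 and 0.33 ± 0.19 for Etv4. The slope of Dusp6 was 0.18 ± 0.29. Leaving out each tumour moved the slopes of these genes to 0.18 to 0.87 for Etv5, 0.20 to 0.73 for Spry4, 0.19 to 0.50 for Etv4 and 0.0064 to 0.46 for Dusp6, in each case lowest without MS1166.1 and highest without MS1155.3, and none was called.

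Pearson's r with log2 Erbb2 was 0.65 for Etv4 (exact permutation p = 0.0781, adjusted over 14006 genes 0.407), 0.63 for Spry4 (p = 0.0938), 0.62 for Etv5 (p = 0.103) and 0.46 for Dusp6 (p = 0.248). Spearman's rho for the same genes was 0.64 (exact permutation p = 0.0962), 0.60 (p = 0.132), 0.57 (p = 0.151) and 0.52 (p = 0.197), and the lowest adjusted p of the 10 genes was 0.407 for r and 0.395 for rho. Without the tumours farthest from the median Erbb2, MS1155.3 and MS1213.1, r was 0.87, 0.85, 0.89 and 0.79. For the other 6 genes r ran from -0.21 (Dusp5) to 0.55 (Spred2) and rho from -0.50 (Spry1) to 0.60 (Spred2), and r without the same tumours from 0.18 (Spred1) to 0.59 (Spry1). These coefficients pool both amplification classes, and none was computed within a class of 5 or 3 tumours.

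Within the high-amplified class, the tumours with most Erbb2 were not those with most of these transcripts. MS1155.3 had 19.9 times the Erbb2 of MS1163.1, yet Dusp6 read 5870 there against 17137, Etv5 2760 against 5962 and Spry4 1516 against 1883. All 10 slopes on Erbb2 were below 0 among these 5 tumours, with a median of -0.13 (all genes -0.01), and none was called (lowest adjusted p of the 10 genes 0.9998, edgeR, with 0 of 13471 genes called and 514 at an unadjusted p under 0.05). The ratio of Dusp6 to Erbb2 counts was 0.0601, 3.24, 1.36, 0.445 and 0.0559 in the order given above. The not/low-amplified tumours had ratios of 0.503, 0.722 and 0.582, inside the range of the amplified ones.

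**Figure D3:**
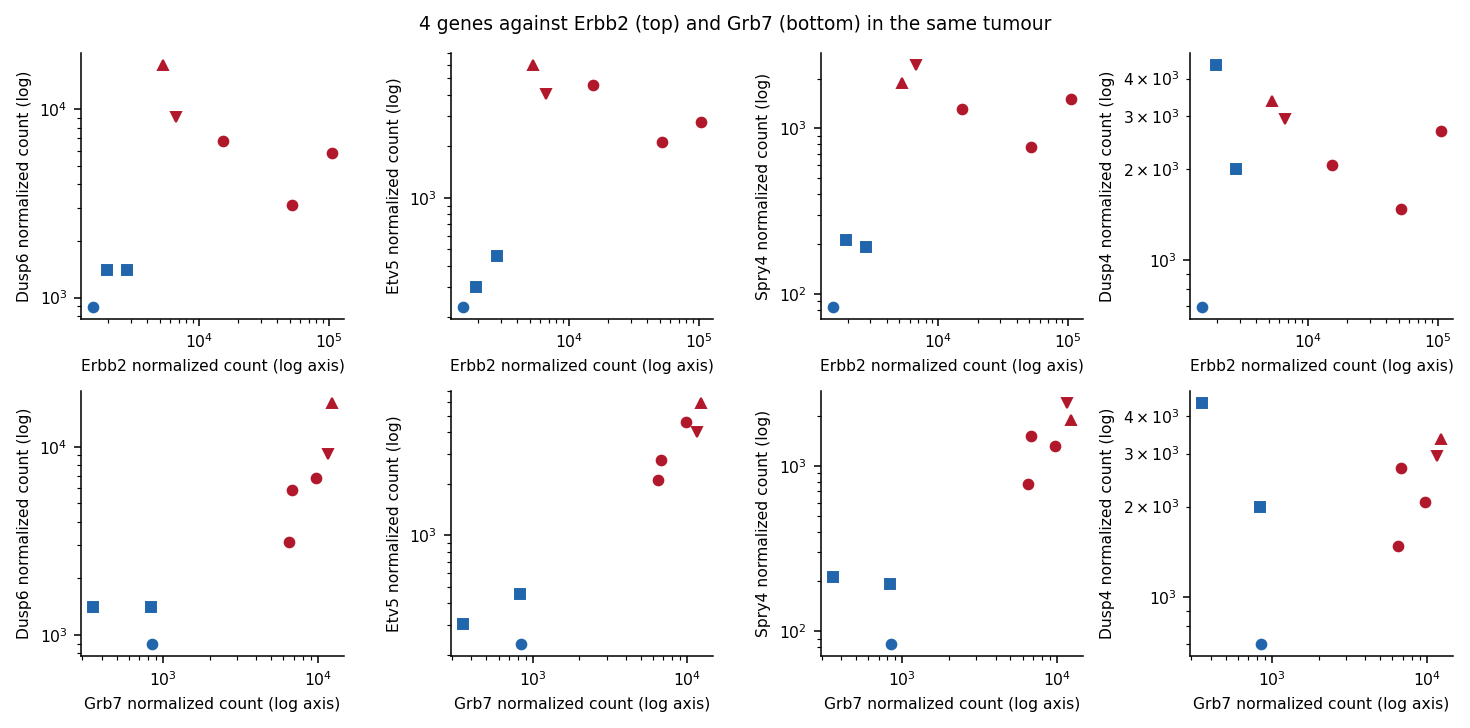
Normalized counts of Dusp6, Etv5, Spry4 and Dusp4 (log axis) against those of Erbb2 (top) and Grb7 (bottom, log axis) in the same tumour, for 5 high-amplified (red, triangles for MS1163.1 and MS1163.2) and 3 not/low-amplified tumours (blue, squares for ASQC). Against Erbb2 the highest red points for Dusp6 and Etv5 are at the left of their group, and against Grb7 at the right.

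Grb7, the adapter gene next to Erbb2 on chromosome 11, gives a second transcript level at the locus, from mouse sequence alone. It is not a measure of copy number. It read 6476, 12343, 11600, 9759 and 6797 in the high-amplified and 831, 353 and 842 in the not/low-amplified tumours. The 2 classes did not overlap in Grb7, the nearest tumours being 7.69-fold apart. Within the high-amplified class Grb7 ranked the tumours unlike Erbb2, and was highest in MS1163.1, where Erbb2 was lowest. With Grb7 in place of Erbb2, 9 of 10 slopes were above 0 and 2 of 10 were called, for Etv5 at 0.87 ± 0.10 (SE) per doubling (adjusted p = 0.0159, edgeR) and Spry4 at 0.75 ± 0.13 (adjusted p = 0.0429), where 0.214% of genes were called as rising. Dusp6 had a slope of 0.66 ± 0.12 (adjusted p = 0.0546). Among the 5 high-amplified tumours alone all 10 slopes on Grb7 were above 0, the steepest for Dusp6 at 1.84 ± 0.63 (SE), with a median of 0.62 (all genes 0.03), and none was called (lowest adjusted p of the 10 genes 0.958, edgeR, 654 of 13471 genes at an unadjusted p under 0.05). This last fit was added after the data had been seen.

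The highest values belonged mostly to the tumours of mouse MS1163. Among the 5 high-amplified tumours, MS1163.1 was highest for 7 of 10 genes (Dusp4, Dusp5, Dusp6, Spry2, Spred2, Etv4 and Etv5) against 11.6% of all genes, and MS1163.2 for Spry4 and Spred1, against 22.9%. MS1213.1 was lowest of the class for 6 of 10, against 18.5%. MS1163.1 and MS1163.2 had the lowest Erbb2 and the highest Grb7 of the class. They were not alike throughout, Spry2 being 3.33-fold, Etv4 1.99-fold and Dusp6 1.88-fold higher in MS1163.1 than in MS1163.2, whereas Spred1 was 1.47-fold and Spry4 1.28-fold higher in MS1163.2. Without both tumours the log2 changes with amplification were 3.31 for Etv5 and 2.93 for Spry4 (adjusted p = 0.121 and 0.132, edgeR), and no gene of all tested was called. With MS1163.1 and MS1163.2 averaged, the median log2 change with amplification was 0.81 for the set (all genes 0.03). That fit is among the 18 alternatives over which the log2 change was 3.10 to 4.06 for Etv5 and 2.25 to 4.21 for Spry4. Whether either gene kept its call in it is not given here. At the other end, MS1166.1 was lowest of the 8 for 6 of 10 genes (Dusp4, Dusp6, Spry4, Spred2, Etv4 and Etv5), against 20.8% of all genes.

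ASQC against AC(NST). None of the 10 genes was called when the 2 ASQC were set against the 6 AC(NST) tumours, where 0.236% of genes were called in either direction by edgeR, and 4 of 10 had an unadjusted p under 0.05 against 8.72% of genes. Log2 changes were -3.12 ± 1.02 (SE) for Etv5 (adjusted p = 0.405, edgeR), -2.71 ± 0.999 for Spry4, -2.35 ± 0.96 for Dusp6 and -1.37 ± 0.50 for Spry2. The AC(NST) tumour without high amplification, MS1166.1, had lower Etv5, Spry4, Dusp6 and Etv4 than either ASQC tumour. For Spry2 alone of the 10 genes, both ASQC values (291 and 226) lay below all 6 AC(NST) values (405 to 1350), MS1166.1 included, which 4.98% of all genes showed. Dusp4 alone had a change above 0, at 0.55 ± 0.54. Without MS1166.1, when ASQC and high-amplified AC(NST) were compared, Etv5 (log2 change -3.36, adjusted p = 0.0318, edgeR) and Spry4 (-2.96, adjusted p = 0.0393) were called higher in high-amplified tumours, where 0.115% of genes were called in that direction. Histotype and amplification class are then the same split. This fit is therefore the amplification fit without MS1166.1 with its sign turned, and cannot separate histotype from amplification. DESeq2 on all 8 tumours also called Etv5 (adjusted p = 0.00974) and Spry4 (adjusted p = 0.0421), among 3.34% of genes.

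Parous against virgin. None of the 10 genes, and 0 of all genes, was called by edgeR when 5 parous were set against 3 virgin tumours (1 of 10, and 14.2% of all genes, had an unadjusted p under 0.05). DESeq2 called 511 genes (3.46%), none of them among the 10. The change was below 0 for 9 of 10 genes, with a median of -0.68 against 0.10 over all genes. Spred2 had the smallest p, at 741 to 1027 in virgin and 387 to 769 in parous tumours (log2 change -0.71 ± 0.29, SE, adjusted p = 0.332, edgeR). The log2 change of Dusp6 was -1.57 ± 0.76 (SE, adjusted p = 0.375). Among the high-amplified tumours alone, 3 virgin and 2 parous, the median of the 10 genes was -0.21 (all genes 0.06), Etv4 was at 0.28, and none of the 10 was called. Virgin and parous differed in amplification class as well, so parity could be separated from it only within the high-amplified class.

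The sarcoma. The single sarcoma has no replicate, and its values give no test. The shares of these genes beyond the range of the 8 epithelial tumours were near those of all genes. It was above all 8 epithelial tumours for Spry1 (1578, against at most 786), Spry2 (1696, against at most 1350) and Spred1 (7709, against at most 6585), a position that 21.7% of genes held. It was below all 8 for Dusp4 (498, against at least 697) and Dusp5 (113, against at least 302), a position that 20.8% of genes held. Dusp6 at 3309, Spry4 at 857, Spred2 at 836 and Etv4 at 319 lay above every not/low-amplified tumour and within the high-amplified range. Erbb2 was lowest here of the 9 tumours, and Grb7 was 16.7. Etv5, at 847, lay between the classes. The markers of other tissue also stood apart in this library, with a fibroblast sum of 11759 TPM and a skeletal muscle sum of 2428 TPM against at most 115 TPM in the epithelial tumours, and their part in these values was not tested.

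The rest of the pathway. Of the other genes of receptor and ERK signalling, set in 5 lists, a single gene of 74 tested (1.35%) was called by amplification, near the 0.921% of all genes called in either direction. It was Etv1, the third PEA3 factor, in the list of other Ets factors (1 of 15 called higher, 0 lower, list median -0.09, 1 higher and 3 lower at an unadjusted p under 0.05). The 3 lower were Ets2 (log2 change -1.46 ± 0.30, SE, adjusted p = 0.057, edgeR), Elf3 (-2.01 ± 0.52, adjusted p = 0.0824) and Elf1 (-0.75 ± 0.29, adjusted p = 0.169), named after their values were seen. Each had every not/low-amplified value above every high-amplified one. The share of all genes in that order is not given here, so how common it is cannot be read from these genes. Etv1 read 651, 6346, 3129, 981 and 3453 in the high-amplified tumours, against 54.9, 49.7 and 28.5 in the not/low-amplified class. The nearest tumours of the 2 classes were 11.9-fold apart, a wider gap than for any of the 10 genes, and the log2 change was 6.03 ± 0.89 (SE, adjusted p = 0.0287, edgeR). The sarcoma read 1851. Etv1, Etv4 and Etv5 thus each had every high-amplified tumour above every not/low-amplified tumour. The Etv1 call was kept in 8 of 18 alternatives, and the log2 change lay between 2.58 and 6.63 over all 18, the lowest with the sarcoma counted as not/low-amplified. The call was lost without MS1163.2, MS1155.3, MS1210.1, MS1349.1 or MS1166.1 (adjusted p = 0.0593 to 0.0832).

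Among 11 other feedback regulators tested (Spry3 was not analysed here), 0 were called, with a median of -0.28 (2 higher and 1 lower at an unadjusted p under 0.05). The largest changes were those of Spred3, 114 to 274 against 26.2 to 58.4 (log2 change 2.18 ± 0.47, SE, adjusted p = 0.0614, edgeR), and Dusp10, a phosphatase of p38 and JNK, 25.2 to 77.8 against 88.0 to 253 (-2.05 ± 0.53, adjusted p = 0.0824). Neither gene overlapped between groups. The order of Spred3 was seen for 7.55% of all genes, and no share is given for that of Dusp10. All 15 immediate early and other ERK-induced genes were tested and 0 were called, with a median of -0.07 (3 higher and 2 lower at an unadjusted p under 0.05). The largest were Egr2, 160 to 519 against 44.0 to 126 (1.64 ± 0.52, adjusted p = 0.12), and Epha4, 241 to 884 against 490 to 1715 (-1.53 ± 0.51, adjusted p = 0.128). The 5 of 15 at an unadjusted p under 0.05 stand beside 22.8% of all genes, and a count of 0 called is near the share of all genes called, 0.921%.

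Of 22 genes of the Ras-ERK cascade, 0 were called, with a median of -0.03 (3 higher and 4 lower at an unadjusted p under 0.05). Nf1, which encodes neurofibromin, the partner of the SPRED proteins, read 5713 to 20202 in high-amplified and 3375 to 3672 in not/low-amplified tumours, with no overlap (log2 change 1.89 ± 0.43, SE, adjusted p = 0.0672, edgeR). Gab1, a docking adapter, had a log2 change of -1.26 ± 0.42, at 1273 to 1520 in high-amplified and 1609 to 6692 in not/low-amplified tumours, without overlap. No share of all genes is given for that order. The highest Gab1 value by far was in MS1166.1 (6692, against 1273 to 1942 in the other 7 epithelial tumours). Of 11 receptors tested (Fgfr4 did not pass the filter), 0 were called, with a median of 0.03 (2 higher and 0 lower at an unadjusted p under 0.05). Fgfr1 read 3194 to 12160 against 1333 to 2280 (2.25 ± 0.50, adjusted p = 0.0641), without overlap, and Erbb4 15.4 to 945 against 3.52 to 60.7, with overlap (3.27, adjusted p = 0.21).

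**Figure D4:**
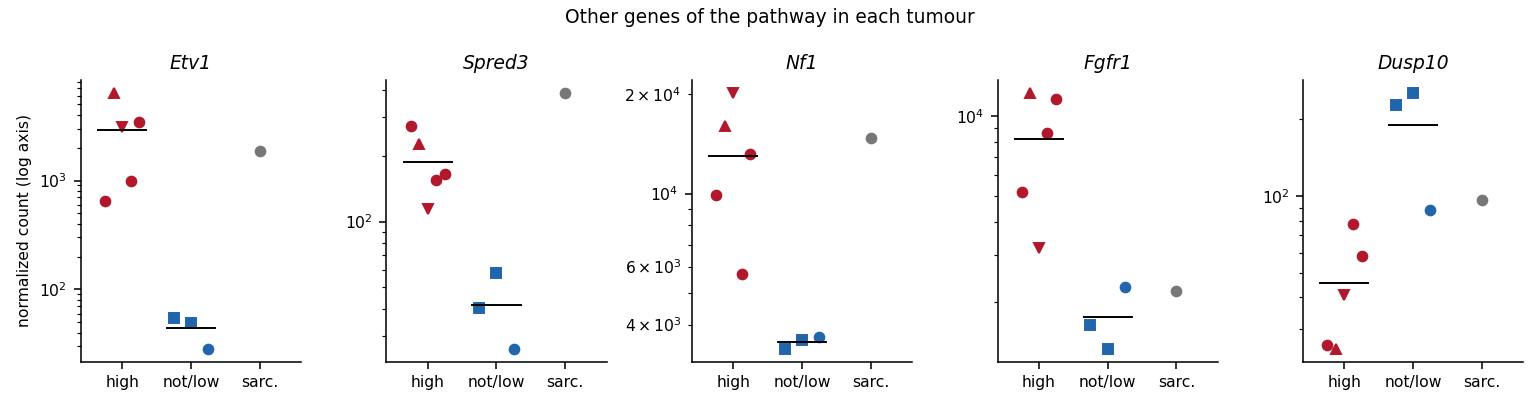
Normalized count (log axis, a different range in each panel) of Etv1, Spred3, Nf1, Fgfr1 and Dusp10 in high-amplified (red), not/low-amplified (blue, squares for ASQC) and sarcoma (grey) tumours, with black bars at group means and triangles for MS1163.1 (up) and MS1163.2 (down). For Etv1, Spred3, Nf1 and Fgfr1 every red point lies above every blue point, for Dusp10 below, and only Etv1 was called.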

How the data were processed

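RNA-seq of 9 BlgCre-NeuKI mammary tumours was used. Per the study's methods, RNA depleted of ribosomal RNA was made into strand-specific libraries, aligned to the mouse genome (build 38) with STAR, keeping uniquely mapped reads, and counted per gene with HTSeq, with strand ignored in alignment and in Cufflinks. FastQC and DESeq2 are also named in the submitters' processing notes. The authors deposited raw read counts for all 9 tumours and, for the 8 epithelial tumours, a normalized signal equal to counts divided by DESeq2-type size factors. Size factors recomputed from the counts matched these, and the sarcoma was scaled by its median ratio to the geometric mean of the 8 tumours. TPM was computed from the deposited counts with GENCODE M21 exon lengths, available for 18420 of 18484 genes.

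Counts were fitted with edgeR 4.0.16 (TMM, quasi-likelihood test) over the genes that reached 10 counts in 3 or more epithelial tumours, with Benjamini-Hochberg adjustment over all 14007 genes. Alternatives used DESeq2 1.42.0, limma 3.58.1 on log2(normalized count + 1), other scaling and filters, covariates, and subsets of tumours. Scripts were tested on simulated counts. Labels gave amplification, histotype and parity. Nothing but tumour numbers separates the animals in the labels, and the paper names MS1163 as an animal whose spleen it assayed. The main fits count MS1163.1 and MS1163.2 as separate tumours. Their p-values therefore measure the spread between these tumours and not between mice. Every gene of the set is described, with from each other list the genes called and otherwise the 2 with the largest change by amplification. Ets2, Elf3 and Elf1 were named outside this rule, for an unadjusted p under 0.05 by edgeR, after their values were seen. The genes and lists were chosen with earlier results of these data known.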

Additional observations from a re-analysis of the deposited data

Results flagged for a closer look

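In the 5 high-amplified tumours, 11 genes (the 10 genes and Erbb2) were examined for a tumour far from the others, by the gap to its nearest neighbour over the whole range (critical value 0.71 for 5 samples), and 2 were found. Chance gives about 1 in 20 such groups where values are normally distributed, which was not tested for these counts. Spry1 read 786 in MS1218.2, where the other high-amplified tumours read 292 to 329 (gap over range 0.924). Spry2 read 1350 in MS1163.1, where the others read 405 to 612 (gap over range 0.781).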

How the results depend on the processing

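No paired analysis was possible because the labels carry no replicate numbers that tie tumours of different groups together. Of 590 values of the 10 genes under alternatives, 514 kept their direction and their side of the threshold, 18 kept their direction but lost a call, 11 gained a call and 47 turned direction. None of the 47 concerned a called value, and the cause was not tested. Etv5, Spry4, Dusp6, Etv4 and Spred2 kept a change above 0 with amplification in all 18 alternatives. Spry2 (0.0047 to 1.41) and Spred1 (0.077 to 0.84) did so too but came close to 0, in both cases lowest with the sarcoma included.

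The number of genes called by amplification was 129 and became 1587 with DESeq2, 229 with no filter on low counts, 31 with the tumours of mouse MS1163 averaged, 40 among AC(NST) tumours alone, 3 with the sarcoma counted as not/low-amplified, 0 with parity as a covariate, 0 among parous tumours alone and 0 without MS1163.1 and MS1163.2 (added after the data had been seen). Leaving out each tumour gave 1 (without MS1210.1) to 1256 (without MS1218.2). By histotype the number was 33 and became 518 with DESeq2, 171 with no filter and 1 among parous tumours, with 4 (without MS1349.1) to 84 (without MS1166.1) when each was left out. By parity it was 0, with 511 by DESeq2 and 0 to 147 (without MS1155.3) when each was left out. By Erbb2 level it was 0, with 505 by DESeq2 and 73 with Grb7 in place of Erbb2.

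Of the log2 changes with amplification, Dusp4 turned to -0.01 with the MS1163 tumours averaged, -0.0018 among parous tumours and -0.15 without both MS1163 tumours, with -0.36 to 0.91 over tumours left out. Dusp5 turned to -0.028 and Spry1 to -0.038 among AC(NST) tumours, and Spry1 to -0.71 with the sarcoma included, with -0.24 to 0.24 over tumours left out. By histotype, Spred1 turned to 0.14 among parous tumours. By parity, Dusp4 turned to 0.050 with the MS1163 tumours averaged and Etv4 to 0.28 among high-amplified tumours. Over tumours left out, the histotype change ran from -0.15 to 0.98 for Dusp4, -0.43 to 0.10 for Spry1 and -0.78 to 0.15 for Spred1, the parity change from -0.47 to 0.12 for Dusp4, and the slope on Erbb2 from -0.12 to 0.082 for Dusp4, -0.065 to 0.021 for Dusp5, -0.050 to 0.078 for Spry1 and -0.021 to 0.11 for Spry2.

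Slopes on Erbb2 turned among the high-amplified tumours alone for Dusp6 (-0.36), Etv5 (-0.26), Spry2 (-0.19), Spry4 (-0.18), Etv4 (-0.085), Spry1 (-0.081), Spred2 (-0.062) and Spred1 (-0.032), and with histotype as a covariate for Dusp4 (0.070), Dusp6 (-0.089), Spry2 (-0.086) and Spry1 (-0.031). Spry1, whose slope was near 0, also turned to -0.0051 with DESeq2, -0.0036 with median-of-ratios scaling, -0.014 with no filter and -0.0036 with the MS1163 tumours averaged. With Grb7 in place of Erbb2, Dusp5 turned to 0.053, and among high-amplified tumours Dusp4 to 0.70 and Dusp5 to 0.55. With 8 tumours in unequal groups, an edgeR call needed a change that was large beside a biological coefficient of variation of 0.534.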
